A study of Homo sapiens with 4 samples.

Results

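The transcripts described here are those of 10 genes of iron handling and ferroptosis, taken by symbol from the 33538 genes of 4 single-cell RNA-seq libraries: FTH1, FTL, TFRC, SLC40A1, HMOX1, GPX4, SLC7A11, ACSL4, NCOA4 and SLC11A2. All 10 symbols were found, each in 1 row. The libraries came from LNCaP, an androgen-sensitive human prostate cancer cell line, and there was 1 library per group. LNCaP parental cells were given the solvent DMSO (0.1%) for 48 h, and LNCaP-ENZ48 cells were the same line given 10 µM of enzalutamide (ENZ), an inhibitor of the androgen receptor, for 48 h. RES-A and RES-B are ENZ-resistant derivatives of LNCaP, kept in 10 µM ENZ; per the study's methods RES-A arose by passage in rising ENZ and RES-B by continuous exposure to the related inhibitor RD-162. Line, route of selection and time in culture therefore cannot be told apart in any comparison with a resistant line. Against LNCaP, which was given no ENZ, the ENZ present in the resistant lines cannot be told apart from these either.

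Cells take up iron as transferrin through the receptor TFRC, move it out of endosomes through transporters such as SLC11A2, store it in ferritin, a shell of FTH1 and FTL subunits, and release it through the exporter SLC40A1. NCOA4 carries ferritin to the lysosome, and HMOX1 frees iron from heme. Ferroptosis is a form of cell death driven by iron-dependent peroxidation of membrane lipids: ACSL4 activates the polyunsaturated fatty acids that are peroxidised, GPX4 reduces lipid peroxides with glutathione, and SLC7A11 imports the cystine from which glutathione is made. Iron itself controls part of this set after transcription, since iron regulatory proteins bind a hairpin, the iron-responsive element, in the untranslated regions of some of these mRNAs. Bound to the 5′ UTR the protein blocks translation, and bound to the 3′ UTR of TFRC it protects the mRNA from decay.

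A search of GRCh38 transcripts for the loop CAGTGN closed by 5 base pairs, with an unpaired C on the 5′ side of the stem, found the element in 4 of the 10 genes. The windows of 26 bases are printed 5′ to 3′ on the strand of the gene, with the loop in capitals. They separate the members whose searched transcript held a match from those whose searched transcript held none.
FTH1 5′ UTR (chr11:61967575-61967600, minus strand): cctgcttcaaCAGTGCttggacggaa
FTL 5′ UTR (chr19:48965337-48965362, plus strand): cttgcttcaaCAGTGTttggacggaa
SLC40A1 5′ UTR (chr2:189580662-189580687, minus strand): acttcagctaCAGTGTtagctaagtt
TFRC 3′ UTR (chr3:196050980-196051005, minus strand): ttatcggaagCAGTGCcttccataat
TFRC 3′ UTR (chr3:196050576-196050601, minus strand): ttatcgggagCAGTGTcttccataat
TFRC 3′ UTR (chr3:196050511-196050536, minus strand): gtatcggagaCAGTGAtctccatatg
TFRC 3′ UTR (chr3:196050464-196050489, minus strand): ttatcgggaaCAGTGTttcccataat
Over all protein-coding genes, 19 of 18763 5′ UTRs (0.101%) and 121 of 19061 3′ UTRs (0.635%) held a match of the same form. A match is a description of the letters and not a measurement of binding. The transcript used for SLC11A2, HMOX1, GPX4, SLC7A11, ACSL4 and NCOA4 held none. Other transcripts were not searched, so an element in another isoform of these genes would have been missed.

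Each library held between 1782 and 4569 cells after filtering and between 50208831 and 60838227 UMIs, the molecular barcodes by which captured RNA molecules are counted. Cells of the LNCaP library were deeper, with a median of 27079.5 UMIs against 12138 to 13676 in the other libraries, and the lower limit on UMIs that the study set was 16000 in LNCaP and 5000 elsewhere. Between 2 and 9 cell barcodes were shared by any pair of libraries. As to the label, all 7 prostate luminal markers examined were at 10 CPM (UMIs per 1000000 UMIs of the library) or more except in RES-A, where 4 were; KLK2 and KLK3, both androgen receptor targets, were at 0.09 and 0.03 CPM there. None of 9 markers of other cell types reached 10 CPM in any library, their summed level was 3.1 to 6.0 CPM, and the leukocyte marker PTPRC and the basal marker KRT5 were at 0 in all 4.

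A level here is the sum of a gene's UMIs over the kept cells of a library, as CPM, and a ratio is the log2 ratio of CPM between 2 libraries. Where 4 values stand together with no library named, they are in the order LNCaP, LNCaP-ENZ48, then RES-A, then RES-B, and 3 ratios to LNCaP keep that order. The 95% intervals (exact Poisson for levels, exact conditional binomial for ratios) cover counting error only. With 1 library per group there was no replicate check and no test, and fewer cells expressing a gene cannot be told apart in these sums from less RNA per cell. A gene was counted as past 1.5-fold by its ratio, among genes that averaged 10 CPM or more over both libraries, which 8 of the 10 members met in each comparison (all but SLC40A1 and ACSL4). HMOX1 met it against LNCaP through the LNCaP level, since in RES-A it was under 10 CPM, and between the resistant lines through the RES-B level.

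After 48 h of ENZ, 0 of the 8 were higher and 2 were lower by 1.5-fold or more, against 0.796% and 3.3% of the 7282 genes compared. In RES-A against LNCaP, 1 was higher and 2 were lower, against 11.6% and 11.3% of 7428 genes. RES-B against LNCaP had 0 higher and 3 lower, against 14.4% and 8.14% of 7570 genes. Between the resistant lines, 2 were higher and 1 was lower in RES-B, against 11.9% and 5.87% of 7508 genes. The median log2 ratio of the 8 members was 0.00 after ENZ, -0.06 in RES-A, -0.14 in RES-B and -0.06 in RES-B against RES-A, and that of all genes compared was -0.07, 0.02, 0.11 and 0.09. The comparisons with LNCaP share that library, so a member's ratios there are not independent of each other. The members did not differ as a block: HMOX1 and SLC7A11 lay lower in all 3 ENZ-exposed libraries, GPX4 and FTL lay higher in all 3, FTH1 was lowest in RES-B, and NCOA4 and SLC11A2 kept within a narrow range.

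**Figure D1:**
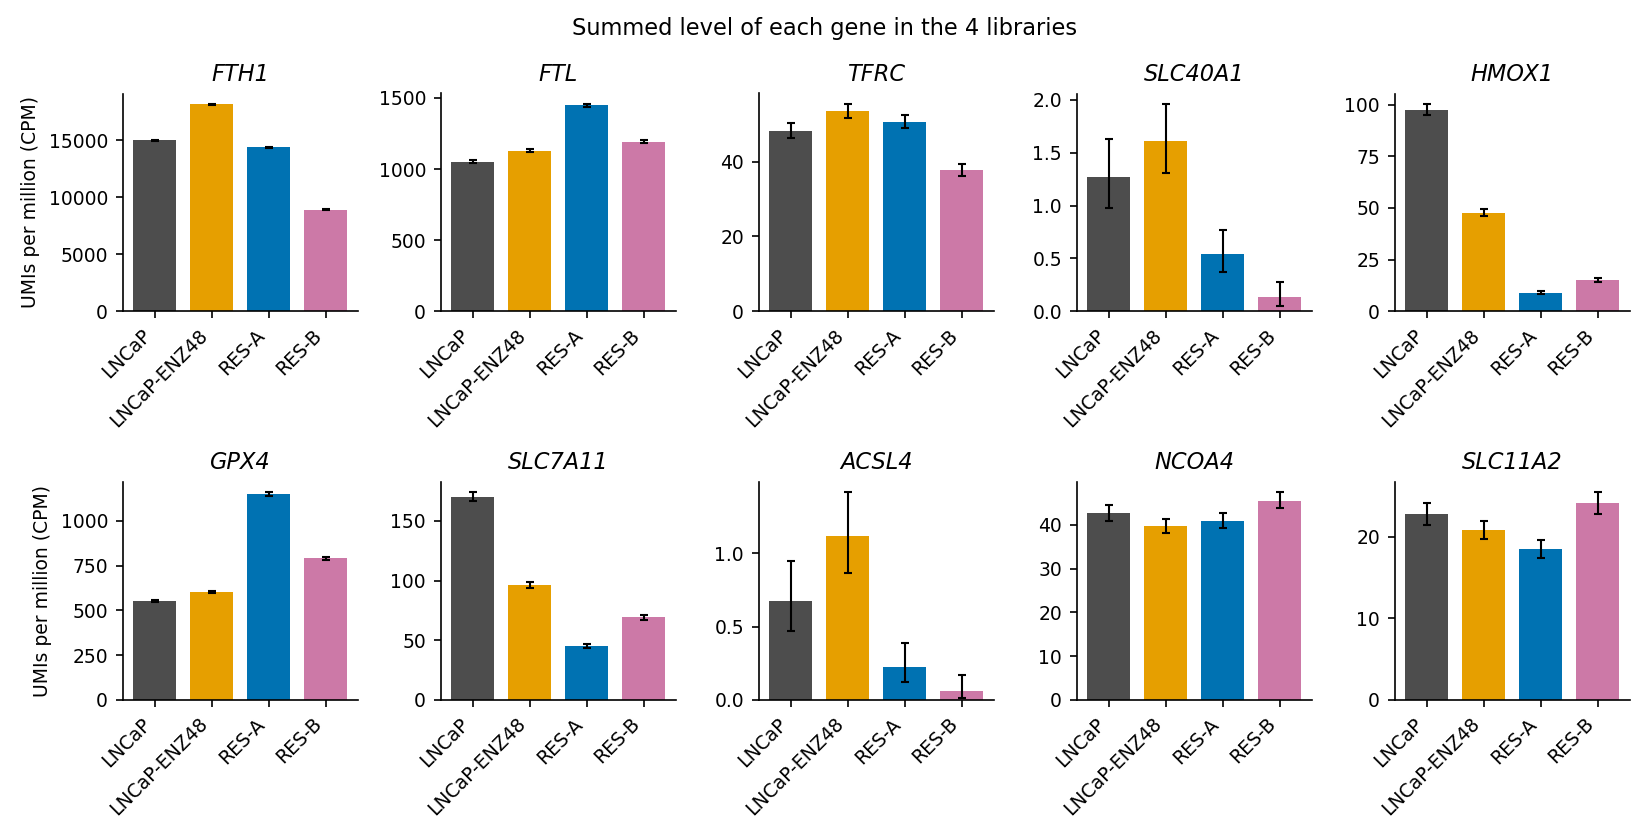
Summed level of each of the 10 genes in CPM (vertical axis, linear from 0, own scale per panel) in the 4 libraries; bars are 1 library each and error bars are exact Poisson 95% intervals. HMOX1 and SLC7A11 were highest in LNCaP (97.6 and 170 CPM), GPX4 was highest in RES-A (1151 CPM), and SLC40A1 and ACSL4 stayed under 2 CPM.

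**Figure D2:**
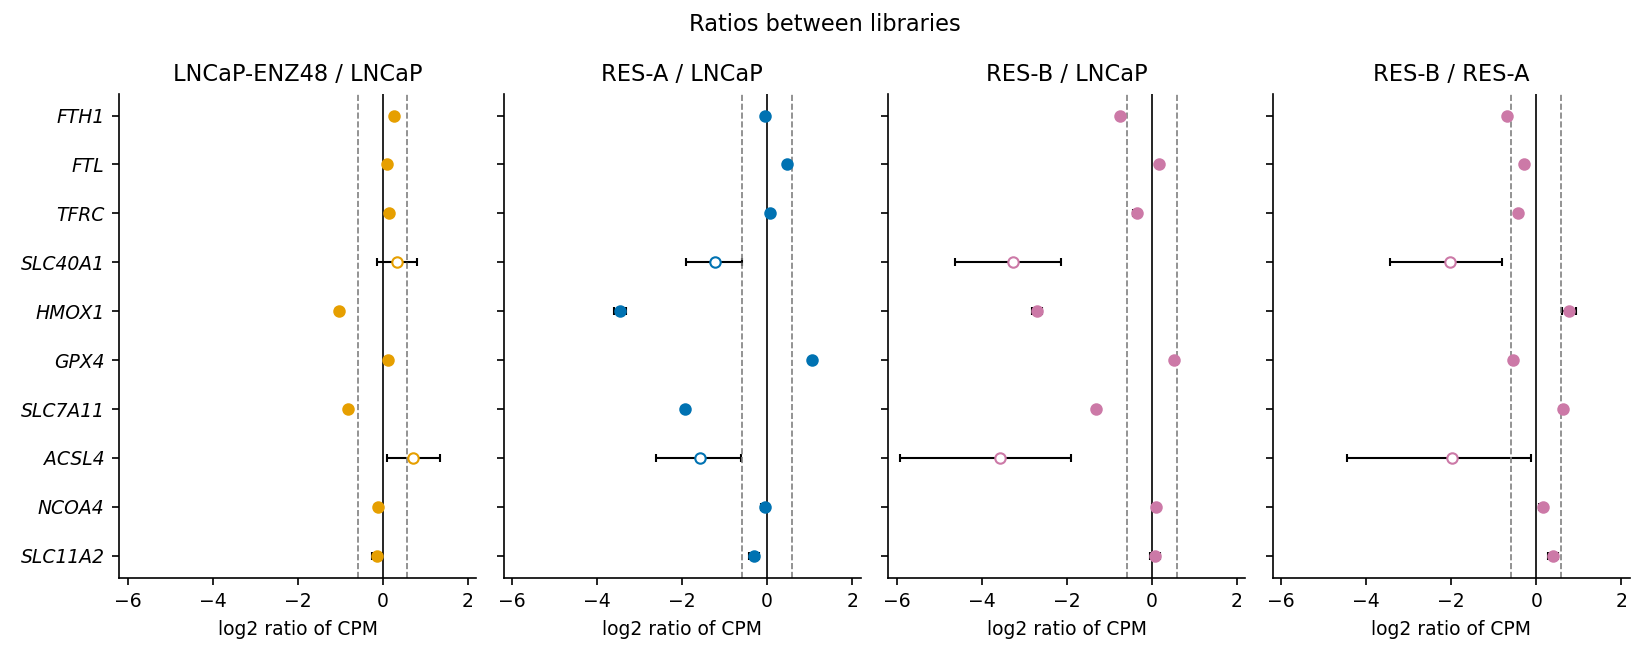
Log2 ratio of CPM (horizontal axis) of each gene in the 4 comparisons, with exact conditional binomial 95% intervals as bars, hidden by the point where narrow. Open circles are SLC40A1 and ACSL4, which were under the minimum level of 10 CPM; dashed lines mark 1.5-fold, and HMOX1 in RES-A lies at -3.46.

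HMOX1, the inducible heme oxygenase, had the widest range of the 8 genes above the minimum. Its level was 97.6 CPM in LNCaP (4898 UMIs) and 47.6 in LNCaP-ENZ48 (2896 UMIs), then 8.88 for RES-A (509 UMIs) and 15.1 for RES-B (792 UMIs). The order was LNCaP, LNCaP-ENZ48, RES-B, RES-A, and no neighbours in it overlapped within counting error. Against LNCaP this was 2.05-fold lower after 48 h of ENZ (log2 ratio -1.04, 95% interval -1.10 to -0.97), 11-fold lower in RES-A (-3.46, -3.59 to -3.33) and 6.48-fold lower in RES-B (-2.69, -2.81 to -2.59). RES-B stood above RES-A by a log2 ratio of 0.76 (0.60 to 0.93).

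SLC7A11, the light chain of the cystine/glutamate exchanger, followed the same order of libraries over a smaller range. It was at 170 CPM in LNCaP and 96.3 in LNCaP-ENZ48, then 44.7 for RES-A and 69.1 for RES-B. The log2 ratio to LNCaP was -0.82 (-0.87 to -0.77) after ENZ, -1.93 (-1.99 to -1.86) in RES-A and -1.30 (-1.36 to -1.24) in RES-B. RES-B exceeded RES-A by 0.63 (0.56 to 0.70), which fell just under 1.5-fold with TMM scaling (0.58) and with DESeq2 size factors (0.57).

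For HMOX1 and SLC7A11 the level moved with the UMIs per cell, in which depth and cell size cannot be told apart. In the tercile of LNCaP cells with the fewest UMIs, HMOX1 was at 70.7 CPM, and in the tercile with the most it was at 121.8 CPM. The same terciles gave 36.1 and 53.6 CPM in LNCaP-ENZ48, 7.47 and 8.78 in RES-A, and 13.5 and 14.7 in RES-B, so the slope was seen in the LNCaP and LNCaP-ENZ48 libraries. SLC7A11 was higher in the largest than in the smallest tercile in LNCaP (146 to 187 CPM), LNCaP-ENZ48 (75.8 to 107) and RES-A (35.3 to 51.4), and was at 75.8 and 70.6 CPM in RES-B. When cells of 16000 to 25000 UMIs were compared in every library, HMOX1 was at 72.1, 54.5, 9.04 and 13.5 CPM in the 4 libraries. The log2 ratio after 48 h of ENZ was then -0.40 (-0.52 to -0.28) for HMOX1 and -0.46 (-0.54 to -0.37) for SLC7A11, both short of 1.5-fold. In RES-A the ratios over these cells were -3.00 and -1.44, and in RES-B they were -2.42 and -0.99. RES-B against RES-A gave 0.57 for HMOX1 and 0.45 for SLC7A11, also short of it. The range took opposite ends of the libraries. Every LNCaP cell in it was below that library's median of 27079.5 UMIs. In the other libraries every such cell was above the median (13676 after 48 h of ENZ, 12138 for RES-A, 12285 for RES-B). Low-UMI LNCaP cells were thus set against high-UMI cells elsewhere. What this choice of cells adds to the smaller ratios was not tested.

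**Figure D3:**
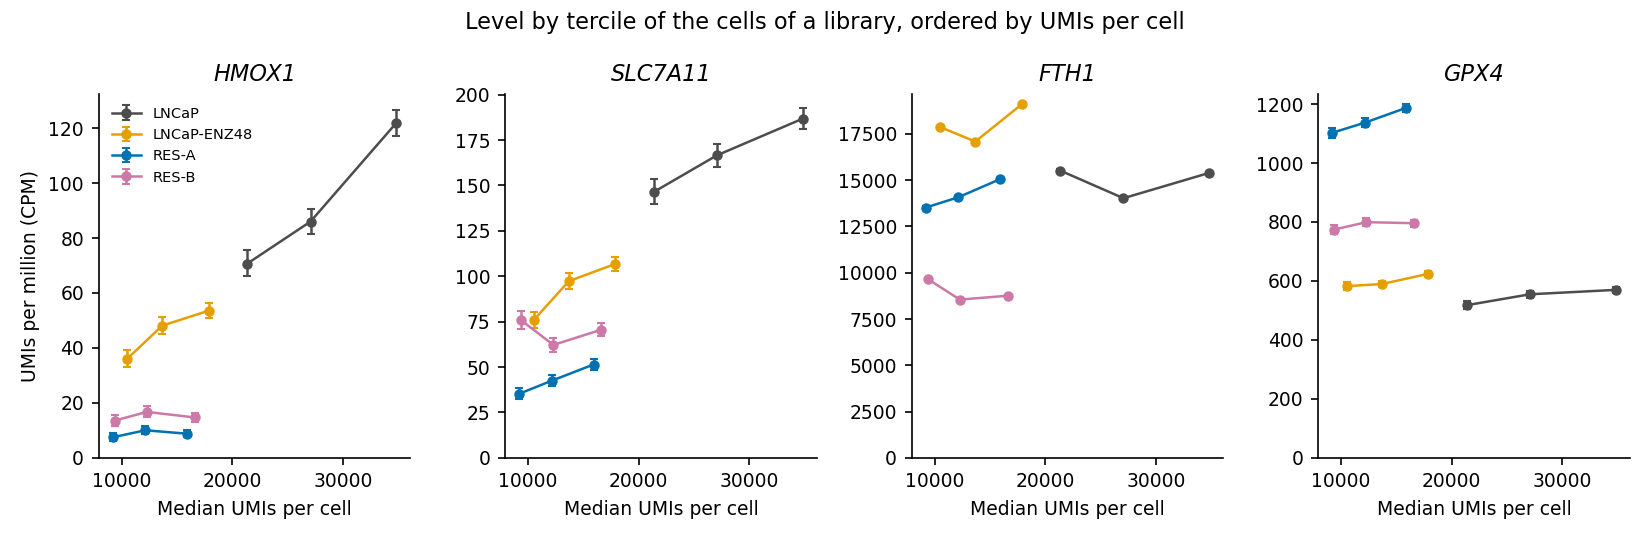
Level in CPM (vertical axis, linear from 0) of 4 genes in the terciles of each library's cells ordered by UMIs, placed at the median UMIs per cell of the tercile (horizontal axis); bars are exact Poisson 95% intervals. HMOX1 went from 70.7 to 121.8 CPM within LNCaP and stayed under 17 CPM in every tercile of RES-A and RES-B, while GPX4 in RES-A lay above all other libraries in every tercile.

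The 2 genes also differed in how they were spread over cells. After every cell had been thinned at random to 5000 UMIs, 23.6% of LNCaP cells held an HMOX1 UMI, against 14.7% in LNCaP-ENZ48, 4.18% for RES-A and 5.52% for RES-B (53.7, 28.4, 9.85 and 11.5% without thinning). The 5% of LNCaP cells with the most HMOX1 held 48.4% of its thinned UMIs, and up to 14 were counted in 1 cell. Its variance over cells was 2.79 times its mean in LNCaP and 2.28 in LNCaP-ENZ48, then 1.09 for RES-A and 2.52 for RES-B, where 1 is the value for purely random counting. RES-B held a few cells with many copies: 7 of its cells (0.172%) had 5 or more thinned UMIs, against 1 in RES-A, and the highest held 13. Such cells were more frequent in LNCaP (30 cells, 1.68%) and LNCaP-ENZ48 (24 cells, 0.556%). SLC7A11 was more even over cells than HMOX1 in 3 libraries, and in RES-A both were close to 1. It was seen in 51.9% of thinned cells in LNCaP and 32.4% in LNCaP-ENZ48, then 17.6% for RES-A and 25.9% for RES-B, with a variance of 1.11 to 1.33 times its mean.

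Markers of other cell types, which this line should lack, gave a background for such shares of 0 to 1.40% of thinned cells. The shares of HMOX1 and SLC7A11 lay above it in every library.

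GPX4, the selenoprotein that reduces lipid hydroperoxides, had the opposite order. Its level was 552 CPM in LNCaP and 603 in LNCaP-ENZ48, then 1151 for RES-A and 792 for RES-B, each apart from its neighbours beyond counting error. The ratio to LNCaP was 0.13 (0.10 to 0.15) after ENZ, 1.06 (1.04 to 1.08, 2.09-fold) in RES-A and 0.52 (0.50 to 0.54, 1.43-fold) in RES-B. RES-B lay below RES-A by a log2 ratio of -0.54 (-0.56 to -0.52). This order held when cells were compared over a common range of UMIs. In cells of 16000 to 25000 UMIs the ratio was 1.2 in RES-A, and that of RES-B, at 0.61, was then past 1.5-fold, and RES-B against RES-A passed it with TMM (-0.59), with DESeq2 factors (-0.60) and in cells with a mitochondrial share of 8 to 12% (-0.61). A GPX4 UMI was seen in 92.3 to 99.3% of thinned cells, and its variance over cells was 1.17 to 1.22 times its mean. The higher level in RES-A was found across most cells: 65.3% of thinned RES-A cells held 5 or more GPX4 UMIs, against 16.2% in LNCaP, 19.9% in LNCaP-ENZ48 and 35.5% in RES-B.

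FTH1, the ferritin heavy chain with the ferroxidase activity, stood apart in RES-B. It was at 14985 CPM in LNCaP and 18152 in LNCaP-ENZ48, then 14377 for RES-A and 8904 for RES-B. The log2 ratio to LNCaP was 0.28 after ENZ and -0.75 in RES-B (-0.76 to -0.75, 1.68-fold lower), and RES-B was 1.61-fold below RES-A (-0.69). FTH1 was also the member most tied to the mitochondrial share of a cell, with a Spearman correlation over cells of -0.14 to -0.29 within a library, and RES-B had the highest median share, 12.2% against 9.38 to 10.4% elsewhere. In cells with a share of 8 to 12%, the RES-B ratio was -0.52 to LNCaP and -0.55 to RES-A, short of 1.5-fold. RES-A differed little from LNCaP (-0.06), and this sign turned in cells called G1 (0.13) and in cells of 8 to 12% mitochondrial share (0.03).

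FTL, the ferritin light chain, did not share the low level of FTH1 in RES-B. Its levels were 1053 CPM in LNCaP and 1129 in LNCaP-ENZ48, then 1448 for RES-A and 1193 for RES-B, with log2 ratios to LNCaP of 0.10, 0.46 and 0.18, all short of 1.5-fold. The UMIs of FTL per UMI of FTH1 were 0.0702 in LNCaP (0.0696 to 0.0709) and 0.0622 in LNCaP-ENZ48, then 0.101 for RES-A and 0.134 for RES-B (0.133 to 0.135). Both chains together took 1.60% of all UMIs in LNCaP and 1.93% in LNCaP-ENZ48, then 1.58% for RES-A and 1.01% for RES-B. Over cells of 1 library the 2 chains were hardly related, with Spearman correlations of 0.01, 0.17, -0.06 and -0.02 in the 4 libraries. The variance of FTH1 over thinned cells was 23.9 to 40.0 times its mean and that of FTL 1.54 to 1.85 times. FTH1, FTL and GPX4 have processed copies elsewhere in the genome, so reads shared with those make their levels uncertain, and whether this differed between libraries was not tested.

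Of the iron transporters above the minimum level, TFRC was at 48.3, 53.5, 50.7 and 37.8 CPM in the 4 libraries. RES-B was again the lowest, at a log2 ratio of -0.35 (-0.44 to -0.27) to LNCaP and -0.42 (-0.51 to -0.34) to RES-A, and RES-A and LNCaP did not differ beyond counting error (0.07, -0.01 to 0.15). FTH1 and TFRC both had their lowest level in RES-B, with the TFRC ratios short of 1.5-fold. SLC11A2, which carries ferrous iron, was at 22.7, 20.8, 18.4 and 24.1 CPM, lowest in RES-A (-0.30, -0.43 to -0.18, to LNCaP). NCOA4, the ferritin receptor of autophagy and also a known partner of the androgen receptor, varied least of all: 42.6, 39.7, 41.0 and 45.6 CPM, with the highest and lowest libraries 0.20 apart on the log2 scale.

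The exporter SLC40A1 and the acyl-CoA synthetase ACSL4 were close to the limit of detection. SLC40A1 gave 64 UMIs in LNCaP and 98 in LNCaP-ENZ48, then 31 for RES-A and 7 for RES-B, or 1.27, 1.61, 0.541 and 0.133 CPM. Its log2 ratio to LNCaP was 0.34 (-0.13 to 0.82) after ENZ, -1.24 (-1.91 to -0.60) in RES-A and -3.26 (-4.63 to -2.13) in RES-B. ACSL4 gave 34, 68, 13 and 3 UMIs, or 0.677, 1.12, 0.227 and 0.0571 CPM, in the same order of libraries. Its ratio was 0.72 (0.11 to 1.36) after ENZ, -1.58 (-2.62 to -0.62) in RES-A and -3.57 (-5.92 to -1.90) in RES-B. Thinned shares of cells were at most 0.857% for SLC40A1 and 0.649% for ACSL4, inside the range given by markers of other cell types, so they were not read as expression in those cells.

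Cells were called G1, S or G2/M from scores of cycle genes, and 3 members differed between G2/M and G1 beyond counting error in the same direction in all 4 libraries. SLC7A11 was higher in G2/M than in G1, by a log2 ratio of 0.51 in LNCaP and 0.58 in LNCaP-ENZ48, then 0.79 for RES-A and 0.74 for RES-B. FTL was lower in G2/M, by -0.48, -0.47, -0.47 and -0.61, and FTH1 was higher, by 0.73, 0.31, 0.06 and 0.18, so the light and heavy chain differed in direction in these sums. Counting intervals leave out the spread among cells, and the variance of FTH1 over thinned RES-A cells was 27.0 times its mean. The direction of its small ratio in RES-A is therefore uncertain. FTH1 in G1 cells was at 13254 CPM in LNCaP and 17924 in LNCaP-ENZ48, while in G2/M cells it was at 21970 and 22146, so these libraries were further apart in G1. HMOX1 had no common direction: in LNCaP it was at 203 CPM in the 141 S phase cells against 83.4 in G1 (log2 ratio 1.29, 1.18 to 1.39), and in LNCaP-ENZ48 it was at 48.9 and 50.4. GPX4 differed by at most 0.11 between phases in any library. The share of cells called G1 was 69.2 to 83.5%, highest in LNCaP-ENZ48; within G1 cells no member changed its side of 1.5-fold.

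**Figure D4:**
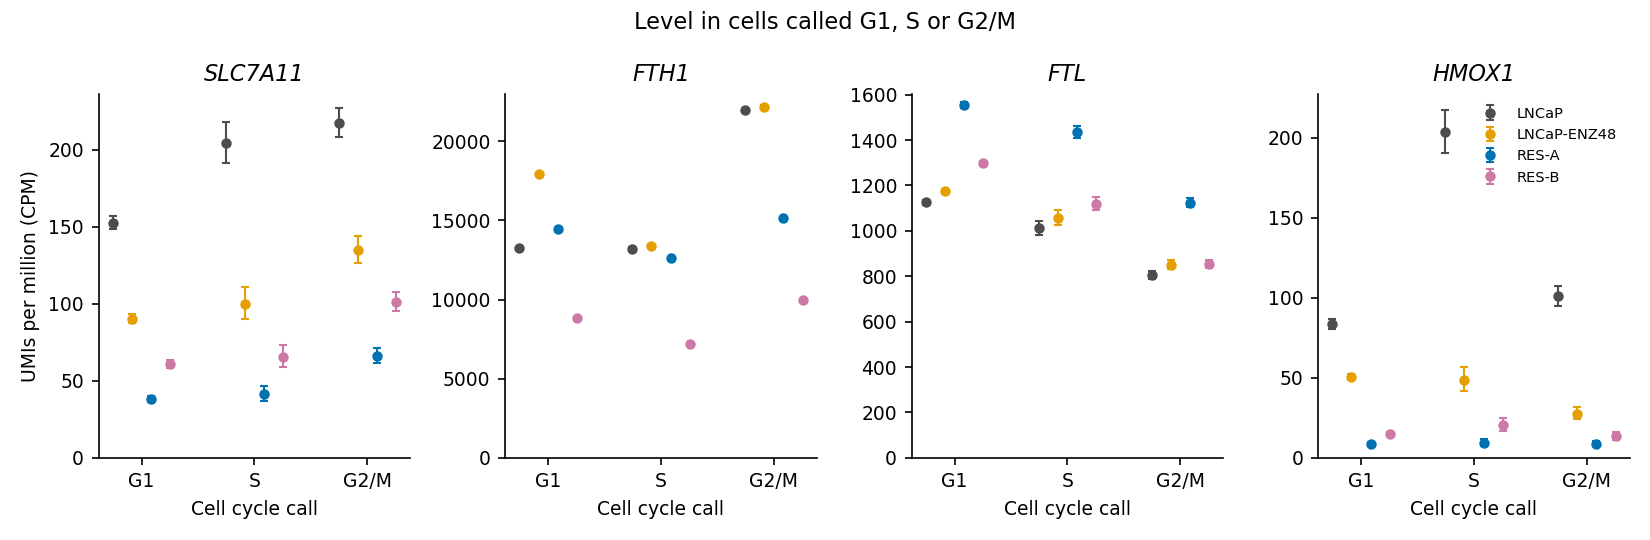
Level in CPM (vertical axis, linear from 0) of 4 genes in cells called G1, S or G2/M in each library; bars are exact Poisson 95% intervals, hidden by the point where narrow. SLC7A11 was higher and FTL lower in G2/M than in G1 in all 4 libraries, and HMOX1 stood out at 203 CPM in S phase cells of LNCaP.

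Over thinned cells within a library, the genes ranking closest to FTH1 were NQO1 (Spearman correlation 0.33, 0.31, 0.48 and 0.36 in the 4 libraries), an NRF2-driven quinone reductase, EIF1 (0.30 to 0.38) and PHGDH (0.18 to 0.39), which opens serine synthesis. Those of FTL were the nuclear RNAs MALAT1 (0.17 to 0.24) and NEAT1 (0.10 to 0.24) and the elongation factor EEF1A1 (0.07 to 0.20). For GPX4 the 3 highest means were at most 0.09, too weak to read. These are descriptions over the cells of 4 libraries among 1911 genes with at least 50 CPM in each, and cells of 1 library share its depth and free RNA. Among the 45 pairs of members, FTH1 with SLC7A11 had the highest mean (0.15, from 0.10 to 0.17), and every other pair had a mean of at most 0.08.

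Across the 4 libraries, the profiles most like that of each of the 4 members with the widest range were named by the smallest root mean square difference of centred log2 CPM, among 2897 genes. For HMOX1 these were the desmosomal cadherin DSC2 (0.10), the scaffold protein HOMER2 (0.24) and the antiproliferative gene BTG1 (0.29). SLC7A11 was nearest to the linker histone H1F0 (0.05), the kinase MAPK6 (0.11) and SLC1A5 (0.15), a transporter of neutral amino acids such as glutamine. For GPX4 the nearest were USP15 (0.04), a deubiquitinase, SF3B5 (0.06), a splicing factor subunit, and TRAPPC2L (0.06). FTH1 was nearest to the septin SEPT11 (0.02), MORN4 (0.05) and RPS27L (0.07). With 4 libraries many genes share a profile, and nothing is drawn from the likeness.

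Wider lists of the same pathways are described by counts over those of their genes at 10 CPM or more, beside the shares for all genes given above. A listed gene under 10 CPM in one of the libraries compared could meet the minimum only through the other, where it was high, so that it had to differ: among those named, this holds for GCLC and CTH in RES-A and for GCLC and AKR1C3 in RES-B, and for SLC39A14 in RES-B, which was just under it. Of 9 such genes of cystine uptake and glutathione, 0 were past 1.5-fold after 48 h of ENZ, with a median of -0.42. In RES-A 1 of 10 was higher and 4 were lower (median -0.40), and in RES-B 1 was higher and 3 were lower (median -0.44). GCLC, the catalytic subunit of the enzyme that limits glutathione synthesis, went the other way. It was at 8.50 CPM in LNCaP and 8.61 in LNCaP-ENZ48, then 33.9 for RES-A and 15.4 for RES-B. Its log2 ratio was 2.00 and 0.85 in the resistant lines. GCLM, the partner subunit of that enzyme, named after its value was seen, was at 137, 91.7, 75.2 and 145 CPM. Its ratios to LNCaP were -0.58, -0.87 and 0.08. SLC1A5 had ratios of -1.59 (RES-A) and -1.06 (RES-B), CTH, which makes cysteine from cystathionine, had -1.36 and -0.44, and the glutathione reductase GSR had -0.24 and -1.26.

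SLC7A11 is a target of both ATF4 and NRF2. Of 12 ATF4 genes of amino acid stress, SLC7A11 included, 2 were lower after ENZ (SLC7A11 and ATF3, -0.80), 5 in RES-A and 3 in RES-B, and none was higher in any of these comparisons. The median of these genes was -0.34 after ENZ, -0.36 in RES-A and -0.43 in RES-B, against -0.07, 0.02 and 0.11 for all genes. Over thinned cells, the genes with the highest mean correlation to SLC7A11 were PSAT1 (0.14 to 0.21), GARS (0.14 to 0.19), EIF1 (0.12 to 0.19) and TRIB3 (0.11 to 0.21), all weak and looked up after other values were seen. TRIB3 was at -0.53, -1.04 and -0.26 and CHAC1, which degrades glutathione, at -0.42, -0.86 and -0.90 in the ENZ-exposed libraries. NRF2 genes, a list that holds the members FTH1, FTL, HMOX1 and SLC7A11, went both ways. In RES-B 3 of 15 were higher and 4 were lower (median 0.06). The lower ones were TXNRD1 and the members HMOX1, SLC7A11 and FTH1, with the lowest ratio for HMOX1. The highest ratio was that of AKR1C3, a steroid and prostaglandin reductase. It was at 0.538 CPM in LNCaP and 0.345 in LNCaP-ENZ48, then 11.1 for RES-A and 23.6 for RES-B. In RES-A 3 of 14 were higher and 4 were lower (median -0.08), and after ENZ 0 of 13 were higher and 2, HMOX1 and SLC7A11, were lower.

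Among genes that protect membranes without GPX4, 2 of 9 were lower after ENZ, 1 was higher and 2 were lower in RES-A, and 2 were higher and 1 was lower in RES-B. MBOAT2, which loads phospholipids with monounsaturated fatty acids and is a known androgen receptor target, was at 59.1 CPM in LNCaP and 17.3 in LNCaP-ENZ48, then 17.9 for RES-A and 12.4 for RES-B. Its ratio to LNCaP was -1.77 (-1.87 to -1.67) after ENZ, more negative than that of any of the 10 members there. NQO1 stood at 280 and 286 CPM in LNCaP and LNCaP-ENZ48 and at 512 and 506 CPM in RES-A and RES-B. COQ8A, of coenzyme Q synthesis, was at 27.2, 22.2, 27.0 and 61.0 CPM, and DHODH, of pyrimidine synthesis, was lower in RES-A (-0.65).

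Genes of the lipids that ferroptosis acts on gave 3 lower of 12 after ENZ, 3 lower of 13 in RES-A, and 3 higher and 4 lower of 13 in RES-B. SAT1, a polyamine acetyltransferase, was at 361 and 353 CPM in LNCaP and LNCaP-ENZ48 and at 73.1 and 83.9 CPM in RES-A and RES-B. ELOVL5, which elongates polyunsaturated fatty acids, was at -0.90, -1.2 and -0.69 in the ENZ-exposed libraries, whereas of the desaturases SCD (0.72) and FADS2 (1.11) were higher in RES-B and FADS1 (-0.67), named after its value was seen, was lower. Of 6 to 8 genes that supply selenoproteins, the class of proteins to which GPX4 belongs, 1 was higher in each resistant line (PSTK, at 0.97 and 1.01). TXNRD1, another selenoenzyme on that list, was lower in both (-1.16 and -1.22), unlike GPX4, and SECISBP2 was lower in RES-A (-0.60).

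Genes of ferritin autophagy other than NCOA4 were higher in the resistant lines in 4 of 7 (RES-A, median 0.68) and 3 of 7 (RES-B, median 0.57), and 1 was lower in RES-A, against 0 in RES-B. The autophagy receptor SQSTM1 was at 151, 167, 543 and 430 CPM, the receptor TAX1BP1 at 137, 175, 260 and 335 CPM and MAP1LC3B at 40.3, 57.0, 85.8 and 75.8 CPM in the 4 libraries. BECN1 was at 0.68 in RES-A. None of the 7 passed 1.5-fold after 48 h of ENZ.

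Iron uptake and delivery had 1 gene lower of 7 after ENZ, 3 in RES-A and 4 in RES-B (median -0.76 there), with 0 higher in any of them. The metalloreductases STEAP1 and STEAP2, which are abundant in prostate cells, were at 216 and 267 CPM in LNCaP and 222 and 279 CPM in LNCaP-ENZ48, then at 107 and 92.9 CPM in RES-A and 78.5 and 98.6 CPM in RES-B. The mitochondrial importer SLC25A37 followed the order of HMOX1 and SLC7A11, with 156, 87.6, 59.8 and 73.2 CPM, and SLC39A14 was lower in RES-B (-0.76). Of 5 genes of iron sensing, ACO1, which encodes iron regulatory protein 1, was higher in RES-B (0.61) and IREB2, which encodes iron regulatory protein 2, was lower in RES-A (-0.64). Heme genes gave 0 of 12 past 1.5-fold after ENZ, and 1 higher (UROD, 0.81) and 1 lower (FECH, -0.91) in RES-A. In RES-B 2 were higher (UROD, 0.73, and PGRMC1, 0.66) and 1 was lower, the biliverdin reductase BLVRB (-0.98). The biliverdin reductase BLVRA was at -0.18 there. Of 12 genes of iron-sulfur cluster assembly, HSCB in RES-A (0.65) was the only one past 1.5-fold against LNCaP in the 3 comparisons.

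On the chromosomes, each member was set beside up to 25 expressed protein-coding genes on either side. The medians of these neighbours lay within 0.17 of the median of all protein-coding genes, on the log2 scale, for HMOX1 and SLC7A11 in the comparisons of LNCaP-ENZ48 and RES-A with LNCaP. In RES-B the 50 neighbours of HMOX1 (22q, gene at chr22:35380361-35394214) had a median of -0.33 and those of FTH1 (chr11:61959718-61967634) of -0.15, against 0.12 for all coding genes. The part of these regions in the levels of HMOX1 and FTH1 in RES-B was not tested. GPX4 (chr19:1103982-1106791) had neighbours at 0.06 in RES-A and 0.04 in RES-B, against its own ratios of 1.06 and 0.52.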

How the data were processed

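The authors made the deposited values, UMI counts per gene and cell barcode, with Cell Ranger 3.0.2 and a GRCh38 reference, after sorting living cells and preparing droplet libraries of 3′ ends, and the counts are not normalised. Here the cells were filtered with the study's limits for each library (3000 to 7000 genes, 16000 to 50000 UMIs and under 15% mitochondrial UMIs in LNCaP; 1500 to 5000 genes, 5000 to 25000 UMIs and under 15, 17 and 20% in LNCaP-ENZ48, RES-A and RES-B). Doublets were not removed. UMIs were summed per library and scaled to CPM, since cells are not replicates; no test was run. Ratios were checked on simulated counts drawn from the same counting model, so that check says nothing of spread between cells or cultures. Shares, correlations and phases used cells thinned to 5000 UMIs (all kept cells had that many).

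The members and gene lists were chosen with earlier results of these data known. All 10 members are named, with up to 4 genes of each wider list among those past 1.5-fold in a comparison; the terciles by UMIs and the 5% of cells with the most UMIs of a gene were added after the values were seen. Elements were searched in the 5′ and 3′ UTRs of the representative (MANE) transcripts of GENCODE 44 on GRCh38, where 33113 of 33538 gene IDs were found. Alternatives, run for the members and for all genes but not for the wider lists, covered cell filters, UMIs per cell, mitochondrial share, phase, scaling (edgeR 4.0.16 TMM, DESeq2 1.42.0 size factors), weighting of cells, minimum level and fold. Python 3.11.15 with scipy 1.17.1 was used.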

Additional observations from a re-analysis of the deposited data

Results flagged for a closer look

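TFRC differed in direction between libraries when cells called G2/M were set against cells called G1. Its log2 ratio was 0.27 in RES-A (95% counting interval 0.14 to 0.39) and -0.27 in LNCaP (-0.43 to -0.11). HMOX1 did so as well, at 0.27 in LNCaP (0.17 to 0.38) and -0.86 in LNCaP-ENZ48 (-1.08 to -0.66). These differences were not tested, since each group is 1 library.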

How the results depend on the processing

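Over 10 settings, 376 of 400 recomputed ratios of a member in a comparison kept their sign and their side of 1.5-fold, 24 did not, and 0 ratios past 1.5-fold changed sign. In cells of 16000 to 25000 UMIs the members past 1.5-fold were 0 lower after ENZ (2 in all kept cells), 1 higher in RES-B and 0 higher in RES-B against RES-A (2 in all kept cells). That range lies below the median UMIs per cell of LNCaP and above the median of each other library. TMM scaling and DESeq2 size factors each gave 1 higher and 2 lower in RES-B against RES-A, a minimum of 50 CPM gave 1 higher there, and a threshold of 2-fold gave 0 in either direction there and 1 lower after ENZ. Of all genes in RES-B against RES-A, 9.78% were higher and 7.08% lower with TMM, and 9.63% and 7.26% with DESeq2 factors. At 50 CPM 9.90% were higher there. At 2-fold 3.37% were higher and 1.70% lower there, and 0.645% were lower after ENZ. The median of the members after ENZ was 0.094 with TMM, 0.10 with DESeq2 factors, 0.10 at a minimum of 1 CPM and 0.11 at 50 CPM. In RES-B against LNCaP it was -0.24 with TMM, -0.23 with DESeq2 factors, -0.22 without mitochondrial and ribosomal protein genes in the total and -0.75 at 50 CPM, where 5 members were left, and it was -0.41 in RES-B against RES-A at 50 CPM with 4 left. A change of scaling or total moves every ratio of a comparison by the same amount, and another minimum level changes which members enter. These moves were not tested. TMM moved the median of all genes by 0.10 after ENZ and by -0.11 in RES-B, and the small ratios of NCOA4 and SLC11A2 in RES-B turned sign with it. ACSL4 in RES-B against RES-A went from -1.99 to -0.17 in cells of 16000 to 25000 UMIs. No paired analysis was possible because each group is 1 library. Depth limits SLC40A1 and ACSL4, and the intervals say nothing of differences between cultures.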
